A study of Mus musculus with 12 samples.

Results

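Voltage-gated sodium channels were followed through 8 genes chosen by symbol from the 55418 genes of the count table: the alpha subunit genes Scn1a, Scn2a, Scn3a, Scn8a and Scn9a, and the beta subunit genes Scn2b, Scn3b and Scn4b. The values are RNA-seq counts from the brainstem (medulla and pons) of 12 outbred CFW mice on P15, with 1 library per mouse. Pups received repeated injections of morphine or saline from P1 to the day before collection, and RNA was taken the next morning, when the morphine mice were in spontaneous withdrawal. Each treatment was given to 3 females and 3 males, all of 1 outbred stock with no transgene or deletion. The libraries held 27850565 to 48097947 counts, and levels are given as CPM, counts scaled to the same library size with the TMM method. The deposited text on RNA extraction names spinal cord whereas the tissue labels name brainstem. Hox genes of the spinal cord (5 genes) summed to at most 0.492 CPM in any library, and markers of hindbrain neurons summed to 547 to 718 CPM.

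In 2 libraries the data went against the labels or the other libraries of their group. The library labelled morphine male 6 had 379.9 CPM of Xist, the RNA of the inactive X chromosome, against 0.398 to 2.71 CPM in the other males and 547 to 970.5 CPM in the females, with the Y-linked Ddx3y at 12.8 CPM against 118 to 199 CPM in the other males. Saline male 3 differed from the other saline males in many genes, as described with the male comparison. Saline males 1 and 2 in turn lay above all other libraries in the summed oligodendrocyte and ribosomal protein genes given there. Saline male 3 and the library labelled morphine male 6 stayed in their labelled groups, and results that turn on either are given with and without it.

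Voltage-gated sodium channels carry the inward current of the upstroke of the action potential. An alpha subunit forms the pore, senses the voltage and inactivates within milliseconds, and beta subunits bind to it, shift its gating and attach it to adhesion and scaffold proteins. In brainstem neurons these channels gather at the axon initial segment and the nodes of Ranvier, where they set the rate and timing of firing, including that of neurons for breathing and for the relay of pain. The alpha subunits change during development, with Scn3a high before birth and Scn8a becoming the main subunit of initial segments and nodes as axons myelinate.

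In the GENCODE M21 annotation of GRCm38, Scn1a, Scn2a, Scn3a and Scn9a lie within 1.178 Mb of each other on chromosome 2, and their transcripts share exact runs of up to 188 bases, the longest between Scn1a and Scn2a. Reads were sequenced at 100 bases and then trimmed for quality, so some aligned reads may have been shorter. Windows shorter than 100 bases were not examined. Of the distinct 100-base windows in a gene's transcripts, 0.876% were also present in another sodium channel gene for Scn1a, 1.03% for Scn2a, 2.22% for Scn3a and 1.44% for Scn9a, and 0 for Scn8a and the 3 beta genes. How reads from such windows were counted is not given in the sources used here. Scn2b (chromosome 9, 45117782 to 45130070) and Scn4b (45138395 to 45154152) lie on the same strand, 8.32 kb apart, and Scn3b (40269217 to 40291618) lies on the same chromosome. In the annotation, 1 antisense gene, Gm13629, overlapped 1.41% of the exon bases of Scn9a, and no gene overlapped the exons of the other 7.

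All 8 genes were expressed in every mouse, between 13.3 CPM for Scn9a in saline male 2 and 550.5 CPM for Scn1a in saline male 3. To compare genes, levels were divided by exon length and are given as RPKM. Scn2b, whose product is joined to the alpha subunit by a disulfide bond, was highest at 67.4 ± 4.32 RPKM (SD, n = 12). Scn4b, whose product carries a tail that can block the open pore and gives rise to resurgent current, followed at 47.2 ± 4.17 RPKM. Scn1a, the main alpha subunit of fast-spiking inhibitory neurons, was at 39.8 ± 4.88 RPKM, and Scn8a was at 22.1 ± 1.52 RPKM. Scn2a, the subunit of immature initial segments and unmyelinated axons, and Scn3b, a beta subunit prominent during development, were level at 14.5 ± 1.78 and 14.3 ± 1.95 RPKM. Scn3a was at 4.81 ± 0.658 RPKM. Scn9a, best known from nociceptors of the peripheral ganglia, was lowest at 1.39 ± 0.195 RPKM, while markers of peripheral sensory neurons summed to at most 1.13 CPM in any library.

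**Figure D1:**
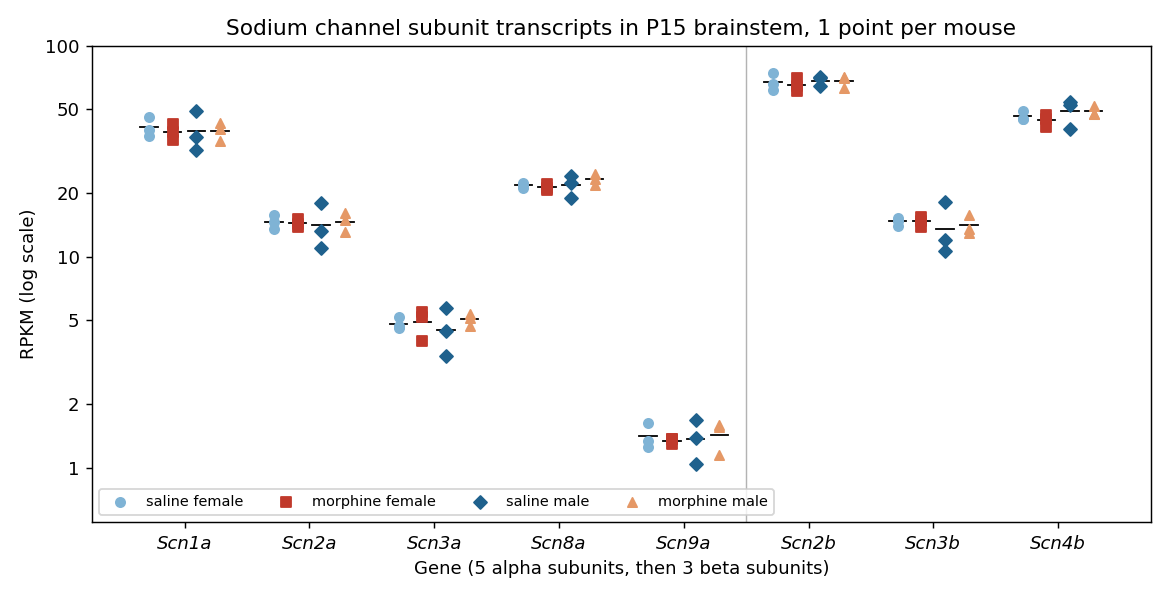
Level of each gene in each mouse in RPKM (log scale), with 1 point per mouse and a black bar at each group mean. The order from Scn2b (mean 67.4) to Scn9a (mean 1.39) is the same in every group apart from the close pair Scn2a and Scn3b, and the 3 saline males are spread more widely than the other groups for most genes.

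Neighbours in this order were compared within mice with an exact test that flips the sign of each mouse's log2 difference, two-sided and adjusted over the 7 neighbouring pairs. The higher gene was higher in 12 of 12 mice for 5 of the pairs, with an adjusted p of 0.000684 in each. The order was taken from the same values, so these p-values are not an independent test of it. They measure the spread between mice and leave out any error from the length used for each gene. Scn4b exceeded Scn1a by 0.25 ± 0.29 on the log2 scale (SD, n = 12) and in 9 of 12 mice, with an exact adjusted p of 0.0160. This pair turned around when the longest transcript was used as the length, which puts Scn1a at 53.0 and Scn4b at 47.2 RPKM (log2 difference -0.16, exact adjusted p = 0.0767). Scn2a and Scn3b did not differ beyond their spread, with a log2 difference of 0.02 ± 0.12 (SD, n = 12, exact adjusted p = 0.589). With the longest transcript as the length, Scn2a was higher by 0.14 (exact adjusted p = 0.00513).

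Within the 5 alpha genes, Scn1a supplied 48.1% ± 2.27 (SD, n = 12) of the summed RPKM, Scn8a 26.9% ± 3.29, Scn2a 17.5% ± 0.952, Scn3a 5.81% ± 0.462 and Scn9a 1.67% ± 0.138. The share of Scn8a varied most, from 20.2% in saline male 3 to 33.7% in saline male 2. Within the 3 beta genes, Scn2b supplied 52.3% ± 0.760, Scn4b 36.6% ± 1.95 and Scn3b 11.1% ± 1.79. Transcript shares in a whole brainstem do not give shares per neuron, since fewer cells of a type and less RNA per cell cannot be told apart in bulk tissue.

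Whether repeated neonatal morphine changed these genes was asked first over both sexes, with edgeR's quasi-likelihood test and sex as a covariate. A gene was called when its unadjusted p was under 0.05 and its absolute log2 fold change was over 0.26, the study's thresholds. All 8 genes passed the filter on low counts, and 0 of 8 were called, where 1.19% of the 18608 genes tested were. The count at an unadjusted p under 0.05 alone was 0 of 8, and it was also 0 of 8 with DESeq2 and with edgeR's exactTest. The median log2 fold change of the 8 was 0.02, against -0.02 over all genes tested, with 5 higher and 3 lower in morphine mice. With scaling by total counts all 8 were higher, and the median of all genes moved to 0.03. For 0 of 8 genes did the 6 morphine and 6 saline mice separate without overlap, against 0.0430% of all genes.

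Scn3a, the embryonic alpha subunit, had the largest difference of the 8 with all 12 mice. Its level ran from 49.8 to 68.0 CPM (median 64.1) in morphine mice and from 42.0 to 71.0 CPM (median 57.7) in saline mice, so both the lowest and the highest values were saline. The log2 fold change was 0.10 (95% interval -0.17 to 0.37, unadjusted p = 0.427, edgeR's quasi-likelihood test, adjusted p = 1.00 over all genes). It was 0.013 without saline male 2 and 0.17 without saline male 3. Scn8a, the subunit of mature nodes, ran from 326.6 to 387 CPM (median 347) in morphine mice and from 299 to 379 CPM (median 349) in saline mice. Its log2 fold change of 0.04 had the interval -0.11 to 0.20. The intervals of Scn2b (-0.16 to 0.14), Scn8a and Scn4b (-0.19 to 0.15) lay inside the fold-change threshold on both sides. Those of Scn2a (-0.21 to 0.27), Scn3b (-0.22 to 0.30), Scn9a (-0.28 to 0.30) and Scn3a passed it on at least one side, and that of Scn1a (-0.26 to 0.22) ended at it.

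**Figure D2:**
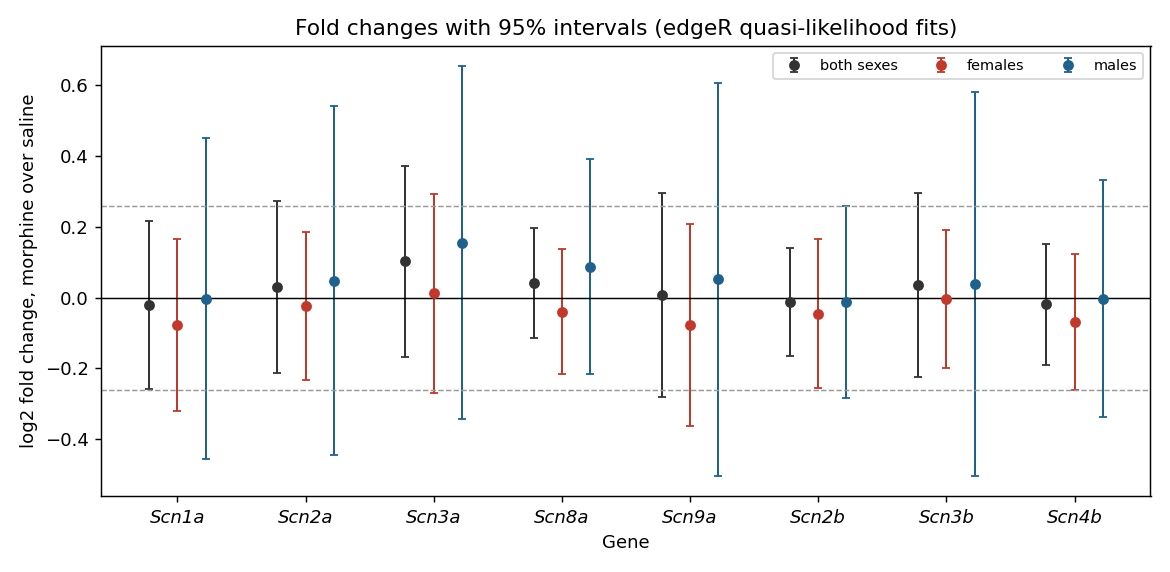
Log2 fold change, morphine over saline, with its 95% interval for each gene in both sexes (n = 6 against 6), females and males (n = 3 against 3 each), and dashed lines at the fold-change threshold of 0.26. Every interval spans 0, and those of the males are the widest, for example -0.50 to 0.61 for Scn9a.

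In females, 0 of 8 genes were called with edgeR's quasi-likelihood test, where 1.81% of 18109 genes were, and 0 of 8 had an unadjusted p under 0.05 with this test, DESeq2 or exactTest. The groups overlapped for all 8, and 5.65% of all genes did not overlap. The log2 fold changes lay between -0.08 for Scn9a and 0.01 for Scn3a, with a median of -0.04 against -0.01 over all genes, and 7 of the 8 were lower in morphine females (6 with scaling by total counts, 3 with offsets for length and GC content). Scn1a was at 415, 444 and 515 CPM in saline females and 399, 436 and 475 CPM in morphine females. Scn4b was at 225, 225 and 245.5 CPM in saline females and 207, 225 and 234 CPM in morphine females, and its log2 fold change of -0.07 (95% interval -0.26 to 0.12) had the smallest unadjusted p of the 8, 0.439 with edgeR. In both genes the lowest value was a morphine female and the highest a saline female, with the rest interleaved.

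In males, 0 of 8 genes were called with edgeR's quasi-likelihood test, where 2.99% of 18166 genes were, and 0 of 8 had an unadjusted p under 0.05 with this test, DESeq2 or exactTest. The groups overlapped for all 8, and 9.10% of all genes did not overlap. The log2 fold changes lay between -0.01 for Scn2b and 0.16 for Scn3a (median 0.04, against -0.06 over all genes), 5 higher and 3 lower. With scaling by total counts or with DESeq2's size factors all 8 were higher. The median of all genes was then 0.06 and -0.04.

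The saline males were the most spread of the 4 groups for 7 of the 8 genes, all but Scn2b, with saline males 2 and 3 at opposite ends in each of the 7. Scn1a was at 356 CPM in saline male 2, 413 in saline male 1 and 550.5 in saline male 3, against 396, 452 and 479 CPM in the morphine males. Scn2a was at 139, 169 and 230 CPM in saline males 2, 1 and 3, and between 166 and 204 CPM in the morphine males. Scn3b was at 58.0, 65.3 and 99.4 CPM in the same order, and between 71.1 and 86.1 CPM in the morphine males. For each of these genes saline male 3 was the highest and saline male 2 the lowest of all 12 mice, and every morphine male lay between them. Scn4b was ordered the other way, at 270, 260 and 201 CPM in saline males 2, 1 and 3.

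Without saline male 3, 3 of the 8 genes were called in males: Scn2a (log2 fold change 0.31, unadjusted p = 0.0342), Scn3a (0.40, 0.0163) and Scn3b (0.35, 0.0183), by edgeR's quasi-likelihood test with 2 saline males against 3 morphine males. In that fit 5341 of 18652 genes were called, 1838 of them higher and 3503 lower, and the smallest adjusted p among the 8 was 0.0899. Without saline male 2 the same genes were at -0.12, -0.03 and -0.12. Leaving out any of the other 5 males called 0 of the 8. Without the library labelled morphine male 6, the log2 fold changes lay between -0.05 for Scn4b and 0.19 for Scn3a, with 6 higher and 2 lower.

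**Figure D3:**
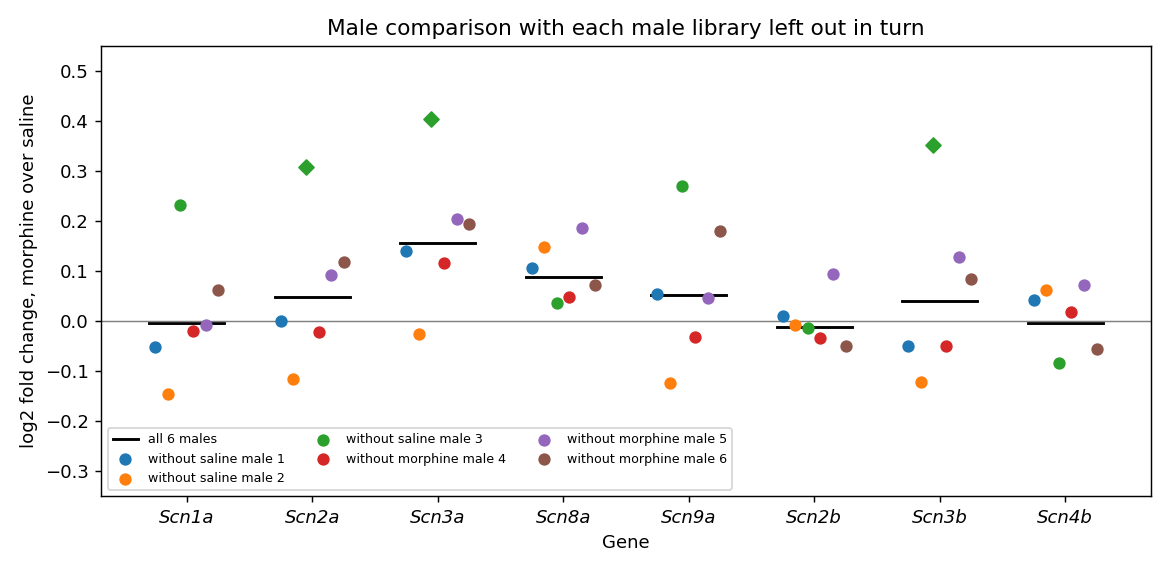
Log2 fold change of each gene in males (black bar, all 6 males) and with each male library left out in turn (coloured points, diamonds where the gene was called). The points without saline male 3 are the highest for Scn1a, Scn2a, Scn3a, Scn9a and Scn3b, up to 0.40 for Scn3a, and those without saline male 2 are the lowest for the same genes.

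Summed markers of other cells also differed among these libraries. Mature oligodendrocyte markers (6 of 6 measured) summed to 57446, 60164 and 38229 CPM in saline males 1, 2 and 3. They summed to between 33453 and 42389 CPM in the morphine males and between 37905 and 48938 CPM in the females. Neuron markers (8 of 8) summed to between 7690 and 8677 CPM in saline males, highest in saline male 3, and to between 7072 and 7275 CPM in morphine males. In females the neuron markers summed to between 6890 and 8791 CPM. Cytosolic ribosomal protein genes summed to 9497, 9039 and 5763 CPM in saline males 1, 2 and 3. They summed to between 6030 and 6905 CPM in morphine males and between 5449 and 8254 CPM in females. For the oligodendrocyte and ribosomal sums, saline male 3 lay within the range of the females and saline males 1 and 2 above it. Skeletal muscle markers summed to 22.6 CPM in saline male 2 and to at most 3.21 CPM in every other library. Cerebellar granule cell markers (4 of 4) summed to between 26.6 and 29.2 CPM in saline males and between 36.2 and 76.8 CPM in morphine males. Their part in the values of the sodium channel genes was not tested.

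The difference between the sexes was tested as the interaction of treatment and sex over the 12 mice. Of the 8 genes, 0 were called, where 2.94% of 19027 genes were, and 0 had an unadjusted p under 0.05 with edgeR or DESeq2. All 8 estimates were above 0, between 0.05 for Scn2b and 0.16 for Scn3a, with a median of 0.09 against -0.03 over all genes. With offsets for length and GC content, 3 were above 0 and 5 below. Scn8a had the smallest unadjusted p, 0.338 from edgeR, with an interaction of 0.14 (95% interval -0.17 to 0.46). Without saline male 3, only Scn3b of the 8 was called (unadjusted p = 0.0394 from edgeR, smallest adjusted p among the 8 0.181). In that fit 4695 of 19472 genes were called, 1110 of them higher and 3585 lower. Without the library labelled morphine male 6 the median of the 8 was 0.15, and 0 were called.

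Ratios between subunits within a library do not depend on library scaling. In this set, 3 were chosen for what they stand for: Scn8a over Scn2a (mature over immature initial segment), Scn1a over Scn3a (postnatal over embryonic) and Scn4b over Scn3b. Ratios can still follow the GC tilt of the libraries, described below. Over the 12 mice, Scn8a and Scn2a had a Pearson r of 0.688 and -0.869 with the tilt. Scn4b and Scn3b had 0.885 and -0.844, whereas Scn1a and Scn3a both fell with it (-0.874 and -0.762). The part of the tilt in the ratios was not tested. An exact permutation of the treatment labels within each sex was used, two-sided, with p adjusted over the 4 ratios computed, the other being summed beta over summed alpha. The log2 ratio of Scn1a over Scn3a ran from 2.91 to 3.16 (median 2.95) in morphine mice and from 2.99 to 3.24 (median 3.12) in saline mice, so the groups overlapped. Its mean was 2.99 ± 0.10 (SD, n = 6) in morphine mice and 3.12 ± 0.09 (SD, n = 6) in saline mice, a difference of -0.12 (exact permutation p = 0.0650, adjusted 0.26). Scn8a over Scn2a was 0.62 in both groups, with SDs of 0.12 and 0.35 (difference -0.003, exact permutation p = 0.985). Scn4b over Scn3b was 1.70 ± 0.17 and 1.77 ± 0.42 (SD, n = 6 each, difference -0.07, exact permutation p = 0.730), and without saline male 3 the difference was -0.25 (exact permutation p = 0.04, not adjusted over the ratios). Within 1 sex the smallest p that 3 mice against 3 allow is 0.1, and the smallest obtained was 0.200, for Scn1a over Scn3a in males.

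**Figure D4:**
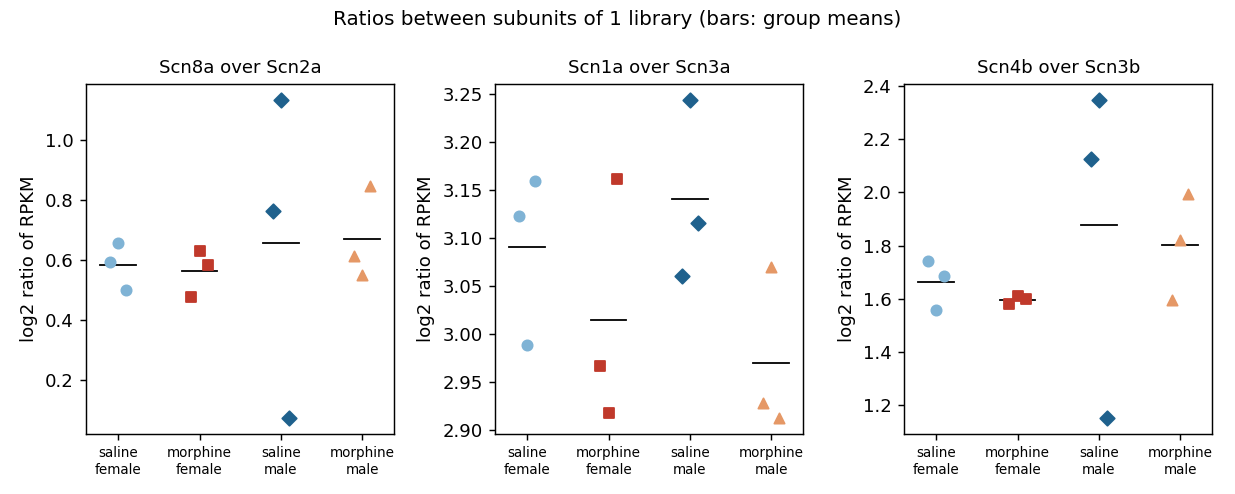
Log2 ratio of RPKM between subunits of the same library for each mouse, by group, with bars at the group means and a separate vertical scale in each panel. Scn1a over Scn3a is at most 3.16 in morphine mice and at least 2.99 in saline mice, and the 3 saline males hold both the lowest and the highest value of the other 2 ratios.

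The genes varied together across mice in a way that followed the GC content of their longest transcripts. For each library, a tilt was computed as the median log2 deviation from the 12-mouse mean of the genes rich in GC (at or above 54.0%, the upper quartile) minus that of the genes poor in GC (at or below 44.4%, the lower quartile). It ran from -0.94 in saline male 3 and -0.52 in saline female 6 to 0.71 in saline male 1 and 0.90 in saline male 2. The morphine libraries lay between -0.20 and 0.47, the highest being the library labelled morphine male 6. Scn1a (43.3% GC) fell with the tilt, with a Pearson r of -0.874 over the 12 mice (permutation p = 0.00031, adjusted 0.00104 over the 8 genes). Its Spearman rho was -0.825 (adjusted permutation p = 0.0106). Scn4b (54.5% GC) rose with it, with an r of 0.885 (permutation p = 0.00019, adjusted 0.00104) and a rho of 0.804 (adjusted permutation p = 0.0106). Without saline males 2 and 3, the libraries farthest from the median tilt, r was -0.692 for Scn1a and 0.756 for Scn4b.

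The 5 genes with the lowest GC content (Scn3a, Scn9a, Scn1a, Scn2a and Scn3b, 42.1% to 47.8%) had r between -0.874 and -0.759, and the other 3 (50.5% to 54.5%) had r between 0.624 and 0.885, with adjusted permutation p from 0.00104 to 0.0303. The adjusted permutation p of rho was above 0.05 for Scn8a (0.0651), Scn9a (0.0615) and Scn3b (0.0651). Scn1a, Scn2a, Scn3a and Scn9a lay below the lower GC cut of the tilt (44.4%), and Scn4b lay above the upper cut (54.0%). Genes beyond these cuts define the tilt, so the signs of r for those genes follow in part from its definition. The permutation p-values do not compare the 8 genes with other genes of like GC content. How many of those followed the tilt as closely was not tested. Without saline males 2 and 3 the signs were the same for all 8, and r for Scn8a was 0.298. Within the saline mice r ran from -0.93 to 0.98, and within the morphine mice from -0.750 to 0.720, with the same sign as in the 12 mice for each gene. Among the 28 pairs of genes, the 10 pairs within the first 5 had an r between 0.639 and 0.936, the 3 pairs within the other 3 an r between 0.418 and 0.744, and the 15 pairs across an r between -0.785 and -0.213. This split was made after the values were seen and has no test. Without saline males 2 and 3, the r of the 15 pairs across lay between -0.672 and 0.356 (10 negative), that of the 10 pairs within the first 5 between 0.0297 and 0.857, and that of the 3 pairs within the others between 0.337 and 0.778. Part of the pattern therefore rests on these 2 libraries. Loess offsets for length and GC content reduced the spread within groups on the log2 scale from 0.21 to 0.08 for Scn1a, from 0.24 to 0.12 for Scn3a and from 0.10 to 0.05 for Scn8a. It went from 0.23 to 0.20 for Scn3b, from 0.10 to 0.09 for Scn2b and stayed at 0.13 for Scn4b, and over all genes the median spread went from 0.29 to 0.20. With these offsets 0 of the 8 genes were called in any comparison.

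**Figure D5:**
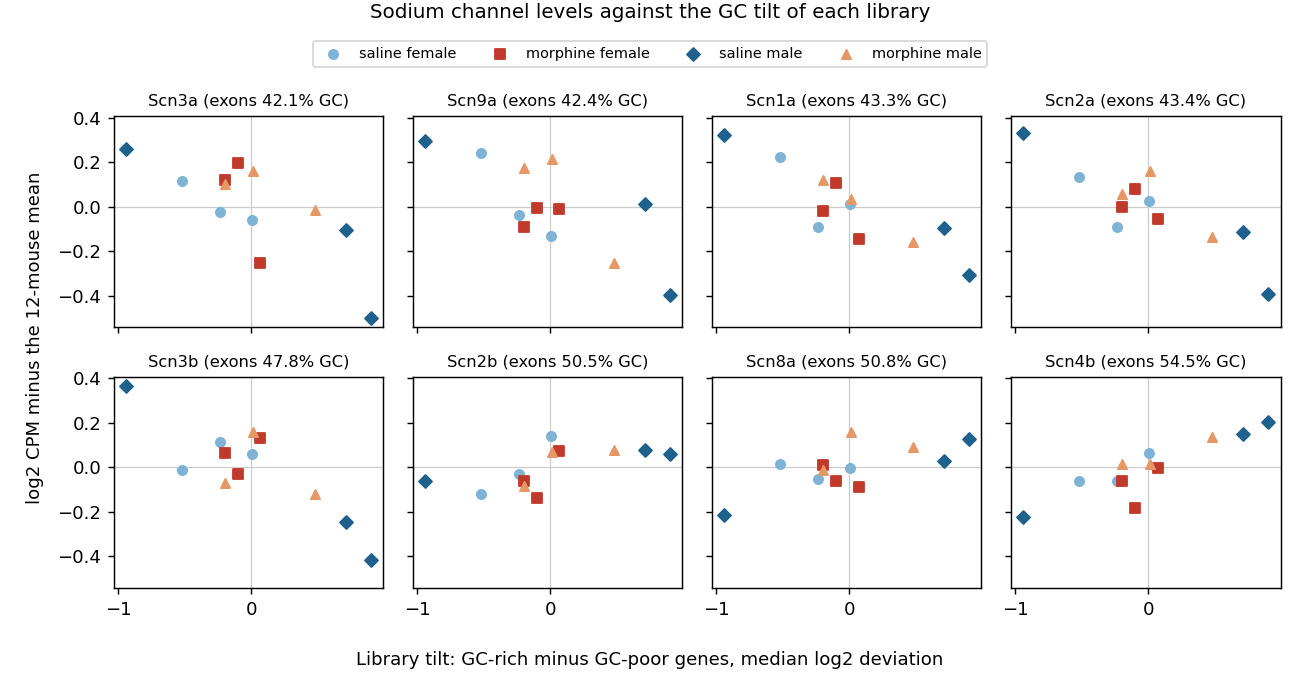
Log2 CPM of each gene minus its mean over the 12 mice, against the GC tilt of the library, with 1 point per mouse. Panels are in order of the GC content of the longest transcript. The points slope down in the 5 panels from Scn3a to Scn3b and up in those of Scn2b, Scn8a and Scn4b, with saline males 2 and 3 at the ends of the horizontal axis.

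For each of the 8 genes, the gene with the most similar levels over the 12 mice was found among the 11679 genes with a mean of at least 5 CPM. Scn1a was closest to 5330434G04Rik (r = 0.977), then Fgf14 (0.972) and Pgm2l1 (0.971). Fgf14 encodes an intracellular partner of sodium channels. These later ranks are given for Scn1a only, outside the rule of naming the closest gene. The closest were Ecpas for Scn2a (0.976), Vezt for Scn3a (0.951), Pcdhgc5 for Scn8a (0.930), Zfp449 for Scn9a (0.946), Nsf for Scn2b (0.968), Cd200 for Scn3b (0.964) and Gbf1 for Scn4b (0.961). The points share the libraries and the tilt given above, and the genes were the highest of many, so the values are a description.

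The sodium channel genes Scn4a, Scn7a, Scn10a and Scn11a were low in this tissue. Scn7a, a salt-sensing relative that is not opened by voltage, was at 7.68 ± 1.69 CPM (SD, n = 12), with a log2 fold change of 0.13 over both sexes (95% interval -0.27 to 0.53). Scn11a and Scn10a, channels of nociceptors, were at 0.449 ± 0.149 and 0.128 ± 0.0762 CPM, and Scn4a, the channel of skeletal muscle, was at 0.0955 ± 0.0921 CPM. Scn7a and Scn11a were called in 0 of the 4 fits by edgeR, with no unadjusted p under 0.05, and Scn10a and Scn4a were too low to be tested.

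Proteins that place, bind or modify sodium channels were taken as a list of 30 genes, all of which were tested, and 0 of 30 were called in any of the 4 fits, where 1.19% of all genes were over both sexes, 1.81% in females, 2.99% in males and 2.94% in the interaction. Their median log2 fold change was -0.001 over both sexes, -0.01 in females and -0.01 in males, with 15 higher and 15 lower over both sexes. Ank3, which encodes the ankyrin that anchors the channels at the initial segment, was at 665 ± 25.3 CPM in morphine mice and 663 ± 34.1 CPM in saline mice (SD, n = 6 each), a log2 fold change of 0.02 (95% interval -0.12 to 0.15). Fgf14 was at 29.3 ± 2.88 and 29.8 ± 5.90 CPM, with -0.01 (-0.30 to 0.27). Nfasc, the adhesion molecule of nodes and initial segments, was at 1230 ± 94.2 and 1186 ± 277 CPM, with 0.06 (-0.23 to 0.36). The smallest unadjusted p in the list over both sexes was 0.0827 in edgeR, for Prrt2, at a log2 fold change of 0.64 (95% interval -0.09 to 1.37). Prrt2 was low, at 0.570 ± 0.186 CPM in morphine mice and 0.372 ± 0.164 CPM in saline mice (SD, n = 6 each).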

How the data were processed

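Per the labels and the study's methods, the authors prepared 1 poly-A library per mouse, sequenced 100-base single-end reads, and used Trimmomatic for trimming, STAR for alignment (mm10) and featureCounts for exon reads per gene. They deposited whole-number counts for 55418 genes in 12 libraries (27850565 to 48097947 in total). The strand setting and tool versions are not given in the sources used here. The study split litters between treatments and used sex and dam as covariates over both sexes. The paper's text names edgeR's exactTest and the sex covariate but not dam. No label gives the dam or litter, so mice may be littermates and no litter term was fitted.

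From the deposited counts, edgeR 4.0.16 (R 4.3.3) gave TMM-scaled CPM and quasi-likelihood tests after filterByExpr, fitted over all genes with Benjamini-Hochberg adjustment over all genes. Both sexes were fitted with sex as a covariate, then each sex alone, then the interaction. Calls required p below 0.05 before adjustment and a log2 fold change beyond 0.26 either way. RPKM used the union of GENCODE M21 exons (GRCm38), and GC content was that of each gene's longest transcript. Log2 CPM used a prior count of 2. The fits were also run on simulated counts, drawn for each gene independently. These held no GC tilt shared by genes and no deviating library, so they do not show how the fits behave with either. The alternatives were DESeq2 1.42.0, exactTest, other scalings and filters, loess offsets for length and GC content (span 0.5), a replicate block, and each library left out. The genes named by rule were the 8 sodium channel genes, related ones (some items are not reported here), the gene most like each of the 8, and, in the partner list, Ank3, Nfasc, Fgf14 and any called. Prrt2 was named after its values were seen. The members and lists were chosen with earlier results of these data known. Mice were separate animals, so p-values measure the spread between mice.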

Additional observations from a re-analysis of the deposited data

How the results depend on the processing

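Most of the small differences changed sign under at least 1 alternative (not Scn3a over both sexes, Scn8a and Scn4b in females, or Scn8a in males), whereas 0 of the 8 were called under every alternative run except without saline male 3. Over the libraries left out in turn, 0 to 3 of the 8 were called in males and 0 to 1 in the interaction. Leaving saline male 3 out raised the genes called in males from 543 of 18166 to 5341 of 18652. In the interaction it raised them from 559 of 19027 to 4695 of 19472. The cause was not tested. Over such left-out libraries, called genes of the whole table ranged from 208 to 1482 in females.

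Scaling by total counts turned Scn1a (0.026), Scn2b (0.037) and Scn4b (0.029) over both sexes, Scn3b (0.0014) in females, and Scn1a (0.12), Scn2b (0.11) and Scn4b (0.12) in males. It moved the share of higher among called genes from 51.1% to 72.7% over both sexes, from 51.2% to 60.5% in females, from 64.3% to 91.3% in males and from 54.7% to 81.2% in the interaction. DESeq2 size factors turned Scn9a (-0.0011) over both sexes and, in males, Scn1a (0.016), Scn2b (0.0072) and Scn4b (0.0149), and DESeq2's Wald test gave -0.00074, 0.016, 0.0072 and 0.0148 for them. Without a filter Scn9a was at -0.0019 over both sexes, and with at least 10 counts in every library Scn1a (0.0035) and Scn4b (0.0036) were above 0 in males. Loess offsets turned Scn1a (0.0036), Scn2a (0.057), Scn9a (0.017) and Scn3b (0.042) in females, and Scn2a (-0.0025), Scn9a (-0.0083) and Scn4b (0.053) in males. Contrasts from the fit of all 12 mice turned Scn3b (0.0026) in females and Scn1a (0.023), Scn2b (0.013) and Scn4b (0.021) in males.

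Leaving out each library in turn, the log2 fold changes over both sexes ran from 0.013 to 0.17 for Scn3a, -0.090 to 0.046 for Scn1a, -0.047 to 0.11 for Scn2a, -0.021 to 0.060 for Scn8a, -0.079 to 0.063 for Scn9a, -0.055 to 0.021 for Scn2b, -0.039 to 0.14 for Scn3b and -0.091 to 0.0049 for Scn4b. In females they ran from -0.14 to 0.031 for Scn1a, -0.073 to 0.049 for Scn2a, -0.073 to 0.13 for Scn3a, -0.16 to 0.055 for Scn9a, -0.11 to 0.020 for Scn2b and -0.044 to 0.040 for Scn3b. In males they ran from -0.15 to 0.23 for Scn1a, -0.12 to 0.31 for Scn2a, -0.026 to 0.40 for Scn3a, -0.12 to 0.27 for Scn9a, -0.050 to 0.095 for Scn2b, -0.12 to 0.35 for Scn3b and -0.084 to 0.072 for Scn4b.

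The log2 ratios over both sexes ran from -0.15 to 0.12 for Scn8a over Scn2a, from -0.16 (without morphine female 3, exact permutation p = 0.025) to -0.097 for Scn1a over Scn3a, from -0.25 (without saline male 3, exact permutation p = 0.04) to 0.049 for Scn4b over Scn3b, and from -0.10 to 0.028 for summed beta over summed alpha. These p-values were not adjusted over the ratios or over the libraries left out. In females Scn8a over Scn2a ran from -0.061 to 0.023 and beta over alpha from -0.10 to 0.089. In males Scn8a over Scn2a ran from -0.28 to 0.25, Scn4b over Scn3b from -0.44 to 0.16 and beta over alpha from -0.21 to 0.057. Permuted without regard to sex, Scn1a over Scn3a (-0.12) had an exact permutation p of 0.0498, also not adjusted over the ratios. With the longest transcript as length, Scn4b minus Scn1a was -0.16 and Scn2a minus Scn3b was 0.14 (exact adjusted p = 0.00513). In the 6 saline mice alone Scn4b minus Scn1a was 0.25 (exact adjusted p = 0.255). The cause was not tested for any of these.

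The labels number the libraries 1 to 6 in both treatments, with different sexes under 1 number. Same-numbered libraries did not deviate together (r from -0.36 to 0.18 across genes). A fit with a replicate block and sex called 0 of the 8, with a median of 0.03, and 204 genes in place of 221. The lowest count of any of the 8 genes in a library was 474, for Scn9a, and the intervals of the fold changes include the spread between mice as well as counting error.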
